A study of Mus musculus with 11 samples.

Results

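The genes described here build the elastic fibre of the extracellular matrix. They are elastin (Eln), the fibrillins Fbn1 and Fbn2, the microfibril proteins Mfap2, Mfap4 and Mfap5, the fibulins Fbln1 and Fbln5, and the crosslinking enzymes Lox and Loxl1. A probe set was taken where the platform annotation gave one of these 10 genes as its only symbol. This found 9 genes with 1 probe set each, out of 34760 probe sets on the array and 21640 with 1 symbol. All 9 passed the filter on low values. No probe set of Fbn1 was found by this rule, and Fbn1 was not analysed here.

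Expression was measured on 11 Affymetrix arrays of mouse embryonic fibroblasts (MEFs) of C57BL/6 x 129/SvJ background. In these p53 LSL/LSL cells a removable stop cassette silences both p53 alleles, and in every group p53 had been restored with AdenoCre virus for 24 h (multiplicity of infection 5). The cells were then transfected with control siRNA (3 arrays), p53 siRNA (3 arrays), control antisense oligonucleotide (ASO, 2 arrays) or Pint ASO (3 arrays). Pint (annotated as Lncpint) is a long non-coding RNA induced by p53, and the study targeted it with a pool of ASOs. All groups received 150 nM doxorubicin, a DNA-damaging drug, for the last 12 h, starting 24 h after transfection, so that no group lacked DNA damage or had p53 left unrestored at the outset. Cre-mediated restoration by a virus need not reach every cell, and the labels do not say whether replicates were separate cultures. The p-values therefore measure the spread between these samples, which may be technical.

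In an elastic fibre, a core of crosslinked elastin lies on a scaffold of microfibrils. Fibrillins assemble end to end and side by side into these microfibrils, and microfibril-associated proteins sit on them. Fibulins, with Fbln5 as the best known, bring tropoelastin, the soluble elastin monomer, to the microfibril and bind lysyl oxidases. Lysyl oxidases then oxidise lysine residues, which link the elastin chains. Microfibrils also hold latent TGF-beta through its binding proteins. Fibroblasts and smooth muscle cells are the main makers of these fibres.

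The array medians lay between 7.31 and 7.38 (log2 intensity), and correlations between arrays ran from 0.993 to 0.995 within groups and from 0.983 to 0.993 between groups. Lncpint, which checks the labels, fell by 1.78 on the log2 scale with Pint ASO (SE 0.12, limma, adjusted p = 2.94e-05), and all 3 Pint ASO arrays lay below both control ASO arrays. It also fell by 0.54 with p53 siRNA (SE 0.11, adjusted p = 0.00673), and was 0.71 higher with control ASO than with control siRNA (SE 0.12, adjusted p = 0.0137). The p53 transcript itself was not analysed here. All 8 fibroblast markers were over the floor of log2 6 on average in every group. So were all 6 smooth muscle markers, from Myocd, at group means of 6.20 to 6.38, to Acta2, at 13.87 to 14.05. Of the other lists, 4 of 5 endothelial, 2 to 3 of 6 macrophage and blood, 4 of 5 epithelial, 4 of 4 chondrocyte, 3 of 4 adipocyte and 4 of 4 skeletal muscle markers were over the floor, depending on the group. The blood cell marker Ptprc, the macrophage marker Adgre1, the epithelial marker Epcam, the endothelial marker Emcn and the adipocyte marker Adipoq stayed below it in every group, while Cd68 (9.42 to 10.46) and Cdh1 (7.50 to 8.63), a macrophage and an epithelial marker, were above it.

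Both knockdowns moved most elastic fibre genes, in opposite directions. With p53 siRNA, 8 of 9 were called higher and 0 lower. A gene was called where limma gave an adjusted p under 0.05. Of all 26038 probe sets entered into the adjustment, 7.97% were called higher and 8.96% lower in this comparison. With Pint ASO, 0 of 9 were called higher and 7 lower, where 8.49% of all probe sets were called higher and 10.7% lower. The counts at an unadjusted p under 0.05 were 8 higher and 0 lower with p53 siRNA, and 0 higher and 8 lower with Pint ASO. The share of all probe sets at this unadjusted threshold was not counted, here or below. The median log2 change of the 9 genes was 0.35 with p53 siRNA and -0.54 with Pint ASO, beside 0.01 and 0.00 over all probe sets tested. The 7 genes Fbn2, Mfap2, Mfap5, Fbln1, Fbln5, Lox and Loxl1 were called higher with p53 siRNA and also lower with Pint ASO. Of all probe sets tested, 2.35% had this combination, and no elastic fibre gene was called in any other combination of both knockdowns. The knockdowns were set against different control arrays.

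The p53 siRNA arrays and the control siRNA arrays did not overlap in 8 of the 9 genes (35.7% of all probe sets). The Pint ASO arrays and the control ASO arrays did not overlap in 7 (40.4% of all probe sets). In 8 of 9 genes, all but Eln, the p53 siRNA group had the highest mean of the 4 groups and the Pint ASO group the lowest, an order found in 15.5% of all probe sets. The arrays hold RNA from whole cultures, in which fewer cells of a type and less RNA per cell cannot be told apart.

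**Figure D1:**
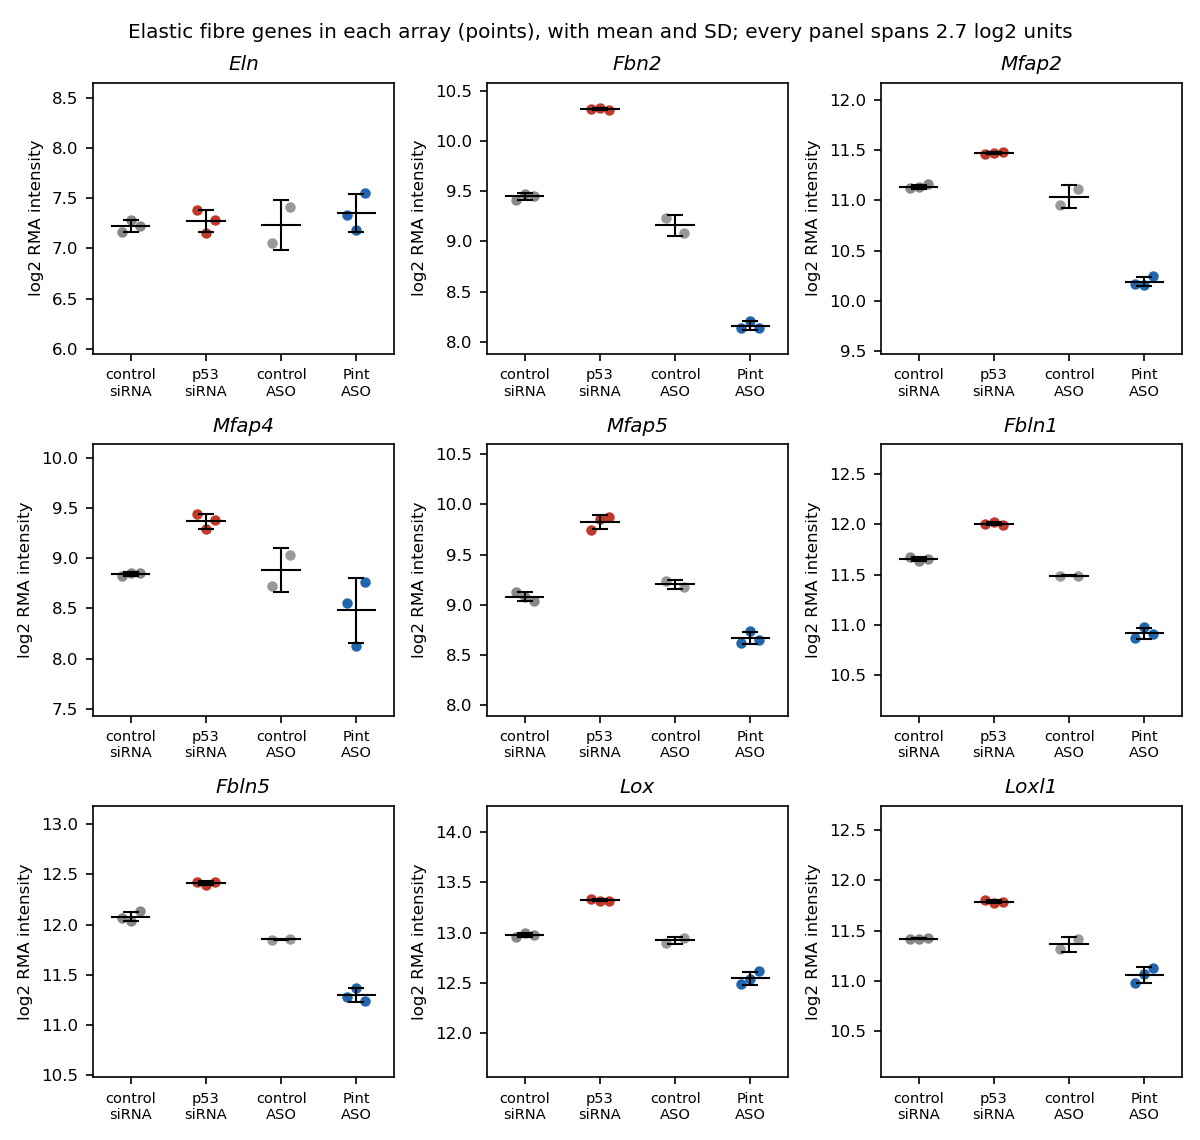
Log2 RMA intensity (vertical axes) of the 9 measured elastic fibre genes in each array, by group, with the group mean and SD as black bars. Each panel spans the same number of log2 units. Apart from Eln, the p53 siRNA points lie on top and the Pint ASO points lowest on average, with Mfap4 the most scattered in the Pint ASO group.

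Promoter sequence was at hand for 3 of the measured genes, Mfap2, Fbln1 and Fbln5, which all moved up with p53 siRNA and down with Pint ASO. Shown are the 250 bases before the most upstream start of each gene in RefSeq, on build GRCm38.p6. The windows lie at chr4:141010174-141010423 (Mfap2, plus strand), chr15:85205699-85205948 (Fbln1, plus strand) and chr12:101819120-101819369 (Fbln5, minus strand), and are written 5′ to 3′ on the strand of the gene. Capitals mark matches on either strand to the GC box (GGGCGG), the CCAAT box (CCAAT) and the TEAD site (CATTCC).
Mfap2: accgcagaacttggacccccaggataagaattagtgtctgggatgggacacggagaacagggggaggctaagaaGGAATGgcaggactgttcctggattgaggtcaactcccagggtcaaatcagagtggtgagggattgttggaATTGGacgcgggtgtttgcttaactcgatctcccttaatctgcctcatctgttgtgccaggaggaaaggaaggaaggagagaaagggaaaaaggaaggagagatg
Fbln1: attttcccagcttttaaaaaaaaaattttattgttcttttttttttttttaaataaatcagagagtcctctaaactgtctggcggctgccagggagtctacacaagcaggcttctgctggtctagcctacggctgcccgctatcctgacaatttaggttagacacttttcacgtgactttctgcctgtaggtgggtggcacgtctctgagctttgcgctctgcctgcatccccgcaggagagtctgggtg
Fbln5: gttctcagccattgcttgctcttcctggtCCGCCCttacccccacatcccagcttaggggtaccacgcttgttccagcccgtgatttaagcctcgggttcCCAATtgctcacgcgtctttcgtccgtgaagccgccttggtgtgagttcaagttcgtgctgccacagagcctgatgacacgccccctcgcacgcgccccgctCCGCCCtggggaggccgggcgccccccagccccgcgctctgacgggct

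The Fbln5 window had a GC content of 65.2% with 21 CpG dinucleotides, 2 GC boxes and 1 CCAAT box. The Mfap2 window had a GC content of 51.2% with 5 CpG, 1 CCAAT box and 1 TEAD site. The Fbln1 window had a GC content of 46.4% with 7 CpG and none of the motifs searched. Over all 32851 RefSeq windows of this length the medians were 52.4% GC and 6 CpG. The GC box was found in 32.7% of them, the CCAAT box in 33.8% and the TEAD site in 12.6%. The TATA box (TATAAA, 12.4% of all windows), the AP-1 site (TGANTCA, 6.75%) and the p53 half-site consensus (7.13%) matched none of the 3 windows nor those at the second starts. RefSeq gives each gene a second start further downstream, and the windows before these differed from the printed ones. That of Mfap2 had a GC content of 68.8% with 18 CpG and 2 GC boxes, that of Fbln1 62.4% with 14 CpG and 1 GC box, and that of Fbln5 49.6% with 6 CpG and none of the motifs. No match in a printed window overlapped another. These are letter matches, and no binding was measured.

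Elastin, the core protein of the fibre, was not called in any comparison. Eln stood at log2 intensities of 7.16, 7.28 and 7.22 in the control siRNA arrays and at 7.38, 7.16 and 7.28 with p53 siRNA. It stood at 7.05 and 7.41 in the control ASO arrays and at 7.33, 7.18 and 7.55 with Pint ASO. All 4 groups overlapped. The log2 change was 0.05 with p53 siRNA (SE 0.11, adjusted p = 0.821), with a 95% interval from -0.21 to 0.30. It was 0.12 with Pint ASO (SE 0.13, adjusted p = 0.591), with an interval from -0.16 to 0.41. Neither interval holds the change of any elastic fibre gene called in that comparison. Both hold changes of related genes called there, such as Hmcn1 with p53 siRNA (0.30) and Itgb3 with Pint ASO (0.30).

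Fibrillin 2, the fibrillin best known from developing tissue, moved most of the 9 genes in both knockdowns. Fbn2 measured 9.41, 9.47 and 9.45 in the control siRNA arrays and 10.31, 10.33 and 10.30 with p53 siRNA. It measured 9.23 and 9.09 in the control ASO arrays and 8.13, 8.21 and 8.13 with Pint ASO. No 2 groups overlapped, and the p53 siRNA and Pint ASO arrays lay on opposite sides of all 5 control arrays. It rose by 0.87 on the log2 scale with p53 siRNA (SE 0.05, adjusted p = 5.20e-06), to 183% of the control siRNA level. With Pint ASO it fell to 49.99% of the control ASO level (SE of the log2 change 0.06, 95% interval from -1.12 to -0.88, adjusted p = 1.10e-05). These changes stood at the 99.6th and the 0.326th percentile of all probe sets tested.

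Among the microfibril-associated proteins, Mfap2 and Mfap5 code for the small glycoproteins MAGP1 and MAGP2, which bind fibrillin. Mfap2 measured 11.12, 11.13 and 11.16 in the control siRNA arrays and 11.46, 11.48 and 11.48 with p53 siRNA. It measured 10.95 and 11.11 in the control ASO arrays and 10.17, 10.16 and 10.24 with Pint ASO. No groups overlapped, and the gap below the controls was wider than that above them. The gain with p53 siRNA was 0.34 (SE 0.05, adjusted p = 0.00140), and the fall with Pint ASO, a change of -0.84 (SE 0.06, adjusted p = 2.77e-05), left 55.7% of the control level.

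Mfap5 showed the reverse balance. It measured 9.13, 9.08 and 9.04 in the control siRNA arrays and 9.75, 9.86 and 9.88 with p53 siRNA. It measured 9.24 and 9.18 in the control ASO arrays and 8.62, 8.74 and 8.65 with Pint ASO. Here too the groups were separate, and the control ASO arrays lay above the control siRNA arrays. Mfap5 rose by 0.74 with p53 siRNA (SE 0.05, adjusted p = 2.02e-05) and fell by 0.54 with Pint ASO (SE 0.06, adjusted p = 0.000377).

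Mfap4, a fibrinogen-domain protein that binds elastin and fibrillin, was the least precise of the set. It measured 8.82, 8.86 and 8.86 in the control siRNA arrays and 9.44, 9.29 and 9.38 with p53 siRNA. It measured 8.72 and 9.04 in the control ASO arrays and 8.55, 8.13 and 8.76 with Pint ASO, so that the third Pint ASO array lay within the control ASO range. Mfap4 rose by 0.53 with p53 siRNA (SE 0.14, adjusted p = 0.0329). This call was lost when any 1 of the 6 siRNA arrays was left out (adjusted p from 0.0609 to 0.0994, log2 change from 0.49 to 0.57). The change with Pint ASO was -0.40 (SE 0.16, 95% interval from -0.76 to -0.04) and was not called (adjusted p = 0.125). Without Pint ASO replicate 3 it was -0.54 and was called (adjusted p = 0.0359).

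The fibulins Fbln1 and Fbln5 followed each other closely. Fbln1, a fibulin of microfibrils and basement membranes, measured 11.68, 11.63 and 11.65 in the control siRNA arrays and 12.01, 12.03 and 11.99 with p53 siRNA. It measured 11.49 in both control ASO arrays and 10.87, 10.98 and 10.91 with Pint ASO. Its 4 groups did not overlap. Fbln1 rose by 0.35 with p53 siRNA (SE 0.04, adjusted p = 0.000365) and fell by 0.57 with Pint ASO (SE 0.05, adjusted p = 7.28e-05).

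Fbln5, which links elastin to microfibrils and cell-surface integrins, measured 12.07, 12.04 and 12.13 in the control siRNA arrays and 12.42, 12.40 and 12.42 with p53 siRNA. It measured 11.85 and 11.86 in the control ASO arrays and 11.28, 11.37 and 11.24 with Pint ASO. These groups were separate as well. Fbln5 rose by 0.33 (SE 0.05, adjusted p = 0.00101) and fell by 0.56 (SE 0.05, adjusted p = 0.000150) in the respective knockdowns.

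The crosslinking enzymes had the smallest changes among the genes called with Pint ASO. Lox, lysyl oxidase itself, measured 12.96, 13.00 and 12.98 in the control siRNA arrays and 13.33, 13.32 and 13.32 with p53 siRNA. It measured 12.90 and 12.94 in the control ASO arrays and 12.49, 12.53 and 12.61 with Pint ASO. The 4 groups did not overlap, although the control groups nearly touched. Lox rose by 0.34 with p53 siRNA (SE 0.04, adjusted p = 0.000547) and fell by 0.38 with Pint ASO (SE 0.05, adjusted p = 0.000811).

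Loxl1, the family member most closely tied to elastin, measured 11.42, 11.42 and 11.43 in the control siRNA arrays and 11.81, 11.77 and 11.79 with p53 siRNA. It measured 11.31 and 11.42 in the control ASO arrays and 10.98, 11.07 and 11.13 with Pint ASO. The control groups met at 11.42, and the knockdown groups lay clear of them on either side. Loxl1 rose by 0.37 with p53 siRNA (SE 0.05, adjusted p = 0.000834). It fell by 0.31 with Pint ASO (SE 0.06, adjusted p = 0.00485), a call that was lost when the ASO arrays were fitted alone (adjusted p = 0.0775).

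**Figure D2:**
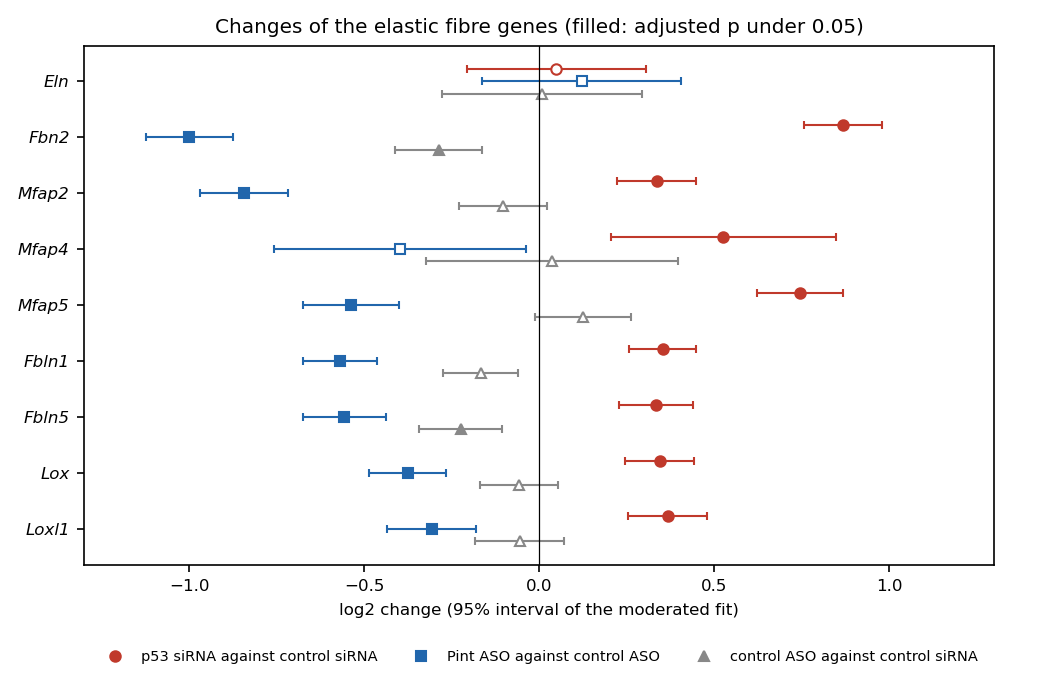
Log2 change (horizontal axis) of each measured elastic fibre gene with p53 siRNA (red circles), with Pint ASO (blue squares) and between the control groups (grey triangles), with 95% intervals of the limma fit; filled symbols are called. The p53 siRNA changes of 8 genes lie right of 0, the Pint ASO changes of the same 8 lie left, and Eln lies at 0.05 and 0.12.

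The knockdown effects were compared directly as the Pint effect minus the p53 effect. This difference was called lower for 8 of the 9 genes and higher for 0, with a median of -0.92, where 9.15% of all probe sets were called higher and 9.4% lower. It was -1.87 for Fbn2 (SE 0.07, adjusted p = 2.28e-06), a 3.65-fold difference between the effects. Mfap5 followed with -1.28 and Mfap2 with -1.18, both at an adjusted p of 1.46e-05. The smallest called difference was that of Loxl1, at -0.67 (SE 0.08, adjusted p = 0.000282). For Mfap4 it was -0.92 (SE 0.21, adjusted p = 0.0148), and without control ASO replicate 2 it was -0.77 and no longer called (adjusted p = 0.0717). Eln had a difference of 0.07 (95% interval from -0.31 to 0.45).

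The control transfections differed less. Between control ASO and control siRNA, 0 of the 9 genes were called higher and 2 lower, with 2.29% of all probe sets called higher and 1.73% lower. Fbn2 was 0.29 lower on the log2 scale in the control ASO group (SE 0.06, adjusted p = 0.0230). Fbln5 was lower by a log2 change of -0.22 (SE 0.05, adjusted p = 0.0499). At an unadjusted p under 0.05, 3 genes were lower and 0 higher, with no share over all probe sets counted. The count of calls dropped to 0 without control siRNA replicate 1, 2 or 3 or without control ASO replicate 2. It was 1 without control ASO replicate 1, Pint ASO replicate 1 or p53 siRNA replicate 1, 2 or 3.

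Most fibroblast markers moved with the elastic fibre genes. Of 8 markers, 5 were called higher with p53 siRNA (7.97% of all probe sets) and 6 lower with Pint ASO (10.7% of all probe sets). Col1a1, the chain of type I collagen that defines matrix-producing fibroblasts, rose by 0.32 with p53 siRNA and fell by 0.62 with Pint ASO. Vim, the intermediate filament protein vimentin, was not called in either (log2 changes of -0.06 and 0.00). Fap was not called in either, and its changes were positive in both (0.13 with p53 siRNA and 0.18 with Pint ASO, the latter at adjusted p = 0.0615 by limma). The summed linear intensity of the 8 markers ran from 46234 to 47193 in the control siRNA arrays and from 53320 to 54060 with p53 siRNA. It ran from 44513 to 44530 in the control ASO arrays and from 36583 to 38535 with Pint ASO. The part of these shifts in the elastic fibre results was not tested. Smooth muscle markers had 2 of 6 called higher with p53 siRNA, and 1 higher and 1 lower with Pint ASO.

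Single markers of other cell types moved in the same comparisons, while others of their lists did not. Cd68 fell in both knockdowns, by 1.04 with p53 siRNA and by 0.47 with Pint ASO. It had the highest level of its list, in which Csf1r, Itgam and Lyz2 were called in neither knockdown. Ptprc and Adgre1 were not tested. The summed linear intensity of the 6 macrophage and blood markers ran from 1708 to 1789 with control siRNA, 1019 to 1061 with p53 siRNA, 1672 to 1705 with control ASO and 1301 to 1348 with Pint ASO. With Pint ASO the endothelial marker Kdr rose by 0.77, with list sums of 497 to 520.0 in the control ASO and 630 to 643 in the Pint ASO arrays. In the same list Tek was called lower with Pint ASO (-0.17), Pecam1 and Cdh5 were not called, and Emcn was not tested. Cdh1 fell by 0.68 with Pint ASO, with epithelial sums of 1038 to 1074 in control ASO and 907 to 978 in Pint ASO arrays. It was also 0.40 lower in control ASO than in control siRNA arrays. Krt8, Krt18 and Krt14 were not called with Pint ASO (log2 changes of -0.02, 0.00 and -0.01). Krt18 was called lower with p53 siRNA (-0.20). Sox9, a chondrocyte marker, and Pparg, an adipocyte marker, were called higher with p53 siRNA (0.19 and 0.21). The skeletal muscle marker Acta1 was called higher with Pint ASO (0.34). Others of these lists were called in neither knockdown or, for Adipoq, not tested. The part of any of these markers in the elastic fibre results was not tested.

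Further genes of elastic fibre biology came from lists by role, and 53 of the 55 listed genes had a probe set with a single symbol. With p53 siRNA, 8 of the 53 were called higher and 4 lower, with a median log2 change of 0.05, where 7.97% of all probe sets were called higher and 8.96% lower. With Pint ASO, 4 were called higher and 24 lower, with a median of -0.16, where 8.49% of all probe sets were called higher and 10.7% lower. The difference between the effects was called higher for 3 and lower for 20, where 9.15% of all probe sets were called higher and 9.4% lower. The p53 siRNA count of 12 fell to 5 without control siRNA replicate 1 and to 6 without control siRNA replicate 3. The number of lower calls, 4 as reported (Tll1, Itgb3, Tgfb2 and Itgav), was 0 without control siRNA replicate 1 or 3 or p53 siRNA replicate 2, and 1 without p53 siRNA replicate 3, with arrays centred on their median, without the filter on low values or with replicate numbers, by either numbering, as a block. The Pint ASO count of 28 fell to 17 when the ASO arrays were fitted alone.

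Of the other fibulins, 1 of 4 was called higher with p53 siRNA (7.97% of all probe sets) and 1 of 4 lower with Pint ASO (10.7%). Efemp1, which codes for fibulin 3, fell by 0.99 with Pint ASO (SE 0.08, adjusted p = 8.45e-05), and was also 0.54 lower in the control ASO than in the control siRNA group (SE 0.08, adjusted p = 0.00977). Hmcn1, the large fibulin hemicentin 1, rose by 0.30 with p53 siRNA (SE 0.08, adjusted p = 0.0279).

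Latent TGF-beta binding proteins (LTBPs), emilins and other microfibril partners had 3 of 18 called higher with p53 siRNA (7.97% of all probe sets). With Pint ASO, 8 were called lower (10.7% of all probe sets) and 1 higher (8.49%). Of the 3 emilins, glycoproteins at the interface of elastin and microfibril, 2 were called higher with p53 siRNA and lower with Pint ASO. Emilin1 rose by 0.65 with p53 siRNA (SE 0.06, adjusted p = 4.69e-05) and fell by 0.67 with Pint ASO (SE 0.06, adjusted p = 0.000133). Emilin2 rose by 0.59 and fell by 0.41. Emilin3 had changes of 0.21 and 0.13 and was called in neither. Adamtsl4, a fibrillin-binding protein of microfibrils, fell by 0.83 with Pint ASO, the proteoglycan decorin (Dcn) by 0.48 and versican (Vcan) by 0.45. Adamtsl3 rose by 0.41 with p53 siRNA. The gene called higher with Pint ASO was Adamts6, at 0.41, named after its value was seen.

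Among lysyl oxidase relatives and the proteins that activate lysyl oxidase, 2 of 10 were called higher and 1 lower with p53 siRNA. Of all probe sets, 7.97% were called higher and 8.96% lower. With Pint ASO, 2 were called higher and 4 lower (8.49% and 10.7% of all probe sets). Postn, or periostin, a matrix protein that brings the protease BMP1 to its substrates, rose by 0.49 (SE 0.05, adjusted p = 0.000213) and fell by 0.62 (SE 0.06, adjusted p = 0.000164). Tll1, a protease of the BMP1 family, went the opposite way to the fibre genes. It fell by 0.31 with p53 siRNA (SE 0.09, adjusted p = 0.0397) and rose by 0.95 with Pint ASO (SE 0.10, adjusted p = 0.000238). With Pint ASO its relative Tll2 rose by 0.29, while Bmp1 fell by 0.22. Pcolce, an enhancer of procollagen processing by BMP1, fell by 0.52 and the lysyl oxidase Loxl3 by 0.42. Loxl4, the other gene called higher with p53 siRNA (0.21), was named after its value was seen.

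Elastases, their inhibitors and the elastin receptor had 0 of 14 called with p53 siRNA. At an unadjusted p under 0.05, 2 were higher and 1 lower, with no share over all probe sets counted. By adjusted p, 7.97% of all probe sets were called higher and 8.96% lower. With Pint ASO, 7 of the 14 genes were called lower (10.7% of all probe sets). They included proteases as well as inhibitors. Timp3, a matrix-bound inhibitor of metalloproteases, fell by 0.71 (SE 0.05, adjusted p = 4.14e-05). Mmp2, a gelatinase that also cuts elastin, fell by 0.39, as did Glb1, of which a splice form is the elastin-binding protein. Mmp14, the activator of pro-MMP2, fell by 0.35, Cst3, an inhibitor of cathepsins, by 0.32 and the cathepsin Ctsl by 0.32.

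TGF-beta ligands and the integrins that bind or activate latent TGF-beta moved both ways. With p53 siRNA, 2 of 7 were called higher and 3 lower (7.97% and 8.96% of all probe sets). With Pint ASO, 1 was called higher and 4 lower (8.49% and 10.7% of all probe sets). Itgb8 rose by 0.57 with p53 siRNA (SE 0.14, adjusted p = 0.0193) and fell by 0.93 with Pint ASO (SE 0.15, adjusted p = 0.00271). Itgb5 rose by 0.22 and fell by 0.41. Itgb3 had the opposite pattern, with a fall of 0.17 (a change of -0.17) and a rise of 0.30. Tgfb3 fell by 0.41 and Tgfb1 by 0.19 with Pint ASO, and Tgfb2 fell by 0.27 with p53 siRNA. Itgav, named after its value was seen, was the third gene called lower with p53 siRNA, with a change of -0.18.

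**Figure D3:**
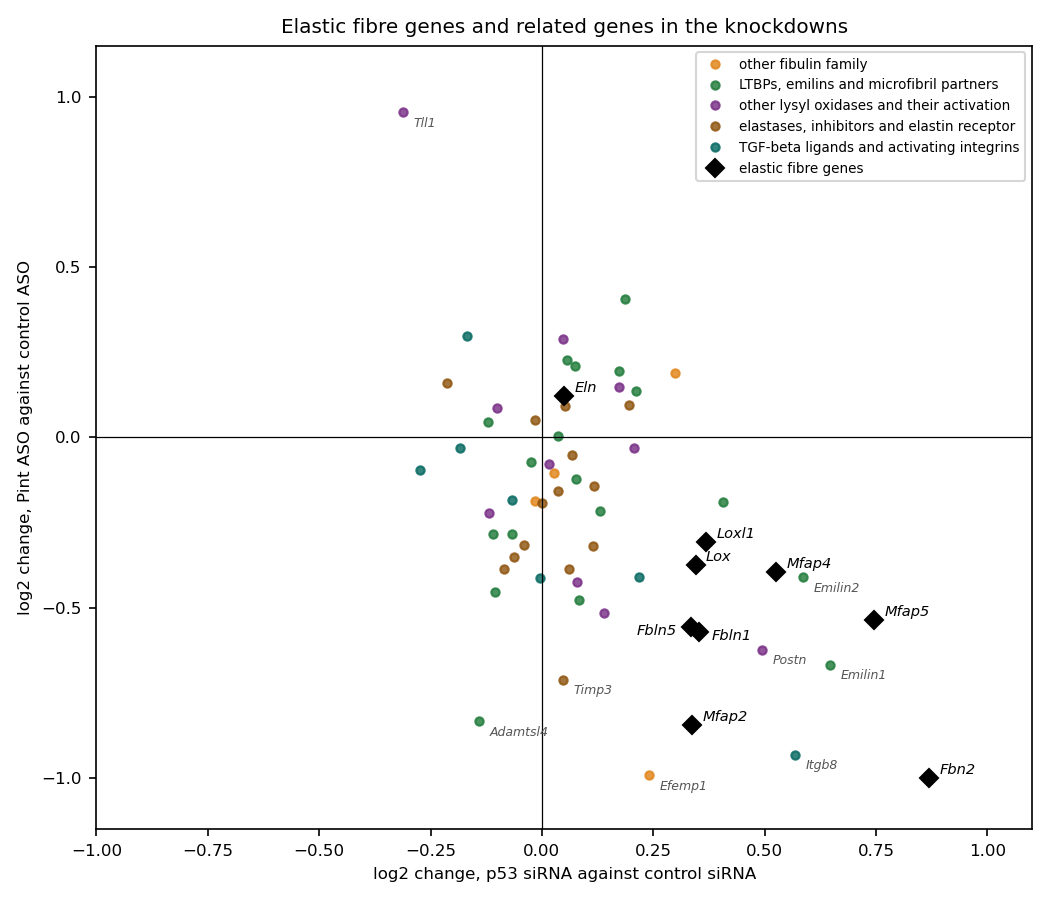
Log2 change with Pint ASO against control ASO (vertical axis) and with p53 siRNA against control siRNA (horizontal axis) for the 9 measured elastic fibre genes (black diamonds) and 53 related genes (circles coloured by role). Of the fibre genes, 8 lie in the lower right quadrant, and of the related genes in the upper left quadrant Tll1 lies farthest from the origin, at -0.31 and 0.95.

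The profiles of single genes over the 11 arrays were also compared with those of all other named genes, as the root mean square difference after centring. The closest to Fbn2 were AW551984 (0.0853), Lbp (0.0913) and Wfdc17 (0.112), where the profile of Fbn2 itself varied by 0.804 around its mean. The closest to Lox were H6pd (0.0386), Kcnd1 (0.0409) and Cd99l2 (0.0421), against a variation of 0.290. For Eln, with a variation of 0.132, they were Lsmem2 (0.0389), C1ql2 (0.0431) and Zfp775 (0.0454). All these values are in log2 units, and the arrays are shared by both genes of each pair.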

How the data were processed

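The deposited values are log2 intensities that the authors made with RMA (background correction, normalization and summarization per probe set, version not given in the sources used here). The methods name different array models in the main text and in the supplement. Labelled cDNA came from 300 ng of total RNA. Probe sets were named from the platform annotation with symbols updated through RefSeq, and 1321 with several symbols were left unnamed. Every per-sample column was used. Probe sets over 6 (log2) in 2 or more arrays of any group were tested. All 4 groups were fitted together in limma 3.58.1 (R 4.3.3), with empirical Bayes moderation, without trend and without a replicate block, and Benjamini-Hochberg adjustment over 26038 probe sets. The limma fit was tested on simulated data for the 2 knockdown comparisons only. The number of arrays limits the precision.

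The genes and lists were chosen with earlier results of these data known. Of each related list, the genes named were those called in either knockdown, up to the 6 with the largest change. Genes with several probe sets were taken at the one with the highest mean. For Eln, Fbn2 and Lox the 3 genes with the closest profile were named. Replicate numbers did not pair the siRNA arrays, since deviations of same-numbered arrays correlated at -0.284, -0.181 and -0.0371. In the ASO arrays, titles and descriptions number the control arrays differently, and the correlations were -0.0463 and -0.420 by title and 0.420 and 0.375 by description, so pairing there was not settled. Alternatives covered the filter, scaling, moderation, single arms, replicate blocks and single arrays left out. Promoter motifs were searched on both strands.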

Additional observations from a re-analysis of the deposited data

Results flagged for a closer look

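The effects of the knockdowns differed, by the test of the difference itself (Pint effect minus p53 effect, limma, adjusted p under 0.05), for 8 genes. The difference on the log2 scale was -1.87 for Fbn2, -1.28 for Mfap5, -1.18 for Mfap2, -0.92 for Mfap4, -0.92 for Fbln1, -0.89 for Fbln5, -0.72 for Lox and -0.67 for Loxl1. Each of these genes had a positive change with p53 siRNA and a negative change with Pint ASO, of which that of Mfap4 with Pint ASO was not called.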

How the results depend on the processing

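The count of elastic fibre genes called in both knockdowns was 7. Among the alternatives that kept the adjusted p it ran from 6 (each arm fitted alone, without Loxl1) to 8 (without Pint ASO replicate 3, with Mfap4). It was 3 (Fbn2, Mfap5 and Fbln1) with a log-odds (B) over 3, a joint count added after seeing the data. The main text of the study names B over 3. Its supplement adds fold-change cut-offs, which were not applied here. The p53 siRNA count of 8 was 3 with B over 3, and 7 to 8 when single arrays were left out. The Pint ASO count of 7 was 5 with B over 3, and that of the difference, 8, was 7. The share of all probe sets with B over 3 was not counted. In the control ASO against control siRNA comparison the count of 2 became 0 with B over 3. It was 1 without the filter on low values, 1 with arrays centred on their median and 1 with robust moderation. It was 0 to 2 when single arrays were left out. With a trend in the limma moderation, Fbln1 was called lower as well (log2 change -0.17, adjusted p = 0.0291). Of the 53 related genes, the p53 siRNA count of 12 ranged from 5 to 13 when single arrays were left out, and the Pint ASO count of 28 was 17 with the ASO arrays fitted alone.

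With a replicate block by title number, the p53 siRNA count was 7 (Mfap4 was lost, adjusted p = 0.0582), the Pint ASO count 7 and the control count 0. By description number these were 8, 7 and 1. A replicate block within each arm, an alternative chosen after seeing the data, gave 6 (title) and 5 (description) related genes with p53 siRNA and 16 (title) with Pint ASO. It also lost the Mfap4 calls with p53 siRNA (adjusted p = 0.0987) and in the difference between effects (adjusted p = 0.0574), by title number. It changed no other call of an elastic fibre gene in a knockdown. Over all probe sets it took the p53 siRNA calls from 4408 to 2285, the Pint ASO calls from 4985 to 1311 and 2604, and single-arm fitting gave 2025.

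The sign of Eln, never called, turned when single arrays were left out. Its change with p53 siRNA ran from -0.00335 (without p53 siRNA replicate 1) to 0.107, and with Pint ASO from -0.0551 (without control ASO replicate 1) to 0.298. The difference ran from -0.105 (without control ASO replicate 1) to 0.248, with -0.0254 both without Pint ASO replicate 3 and with the block within arms by title. Between the controls Eln ran from -0.168 (without control ASO replicate 2) to 0.185, with -0.0204 without control siRNA replicate 1, and Mfap4 from -0.119 (without control ASO replicate 2) to 0.192. The cause was not tested. The mean over several probe sets was not run, because each measured gene has 1 probe set. Only 2 control ASO arrays carry every Pint ASO comparison.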
